A study of Mus musculus with 2 samples.

Results

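The regions described here are promoters of long non-coding RNA (lncRNA) genes that were open in skeletal muscle and lay apart from the coding promoters annotated in GENCODE. They are 847 of the 49160 regions (1.72%, 95% exact Clopper-Pearson interval 1.61 to 1.84) at which peaks of both DNase-seq libraries overlapped by 1 bp or more. A shared region was a member when its midpoint lay within 1 kb of an annotated start of a lincRNA, antisense or lncRNA gene and more than 5 kb from every start of a protein-coding transcript, on the mouse build mm10. The rule used position and the presence of a peak, and no signal value. Its coding starts were those of GENCODE, and 48 members (5.67%) had a RefSeq mRNA start within 5 kb. The study sequenced the ends left by DNase I, a nuclease that cuts accessible chromatin, in the gastrocnemius, a calf muscle, of female B6CASTF1/J mice, an F1 hybrid of C57BL/6J and CAST/EiJ, aged 2 months. The labels give 2 libraries as biological replicates 1 and 2 of 1 group, from separate biosamples under a single donor identifier, so no groups could be compared. The spread between the libraries may be technical, and the files give 1 value per region, so the 2 parental alleles could not be told apart.

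lncRNA genes are transcribed by RNA polymerase II and often spliced, but are not translated into a known protein. Some act in the nucleus, as Xist does in X inactivation, some silence neighbouring genes at imprinted loci, and others serve mainly as precursors from which microRNAs (miRNAs) or small nucleolar RNAs are cut. lncRNAs are known for being more restricted to particular tissues than coding transcripts, and an accessible promoter is a common but not a sufficient sign of their transcription.

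The windows below show the promoters to which the results return, each as 150 bp of the plus strand of the mm10 reference centred on the member's midpoint. Capitals mark a match to a consensus motif that also overlapped a footprint, a short stretch protected from cutting, called by the authors in both libraries. The first 3 are among the strongest members, the next 4 belong to the X-inactivation centre, to imprinted loci and to the neighbourhood of Myc, and the last pair lie in loci of muscle genes.
6720427I07Rik, chr13:48546596-48546745: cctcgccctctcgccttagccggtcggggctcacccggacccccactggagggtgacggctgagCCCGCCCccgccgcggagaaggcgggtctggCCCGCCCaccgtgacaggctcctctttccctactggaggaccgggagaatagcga
1700113A16Rik, chr3:88177671-88177820: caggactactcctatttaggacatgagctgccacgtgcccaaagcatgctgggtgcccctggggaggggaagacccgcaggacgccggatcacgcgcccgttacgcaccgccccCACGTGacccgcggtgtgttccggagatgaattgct
1700020I14Rik, chr2:119594196-119594345: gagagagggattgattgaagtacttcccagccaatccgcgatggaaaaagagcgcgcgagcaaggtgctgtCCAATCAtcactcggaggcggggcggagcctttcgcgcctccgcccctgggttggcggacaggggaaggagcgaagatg
Ftx, chrX:103622426-103622575: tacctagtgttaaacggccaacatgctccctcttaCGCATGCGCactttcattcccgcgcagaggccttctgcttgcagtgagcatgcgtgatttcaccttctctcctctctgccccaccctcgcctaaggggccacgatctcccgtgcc
Kcnq1ot1, chr7:143296551-143296700: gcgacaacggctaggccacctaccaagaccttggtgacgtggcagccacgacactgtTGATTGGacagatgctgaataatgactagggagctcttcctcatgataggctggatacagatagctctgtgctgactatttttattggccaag
Meg3, chr12:109540880-109541029: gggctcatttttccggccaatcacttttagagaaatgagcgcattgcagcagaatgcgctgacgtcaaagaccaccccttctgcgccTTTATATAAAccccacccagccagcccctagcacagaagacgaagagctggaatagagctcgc
Pvt1, chr15:62037916-62038065: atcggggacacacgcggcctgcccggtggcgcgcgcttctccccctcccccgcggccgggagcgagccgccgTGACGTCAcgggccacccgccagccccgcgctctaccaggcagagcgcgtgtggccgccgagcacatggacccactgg
2310065F04Rik, chr11:67119696-67119845: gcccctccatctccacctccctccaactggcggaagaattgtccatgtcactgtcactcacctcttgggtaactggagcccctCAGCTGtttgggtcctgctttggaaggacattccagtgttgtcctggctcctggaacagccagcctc
Gm33926, chr7:67444676-67444825: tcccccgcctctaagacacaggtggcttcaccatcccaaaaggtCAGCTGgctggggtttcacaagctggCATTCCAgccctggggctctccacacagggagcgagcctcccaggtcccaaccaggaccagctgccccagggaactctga

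The capitals mark SP/KLF sites in 6720427I07Rik, an E-box of the CACGTG type in 1700113A16Rik, NFY sites in 1700020I14Rik and Kcnq1ot1, and an NRF1 site in Ftx. They mark a TATA box that reads as a match on both strands in Meg3, a CRE in Pvt1, a CAGCTG E-box in 2310065F04Rik, and a CAGCTG E-box followed by a TEAD site in Gm33926. A match is a description of the letters and does not show that the factor was bound.

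The libraries differed in size. The deposited lists held 66984 peaks in replicate 1 and 258342 in replicate 2, and the authors called 153010 footprints in replicate 1 and 338761 in replicate 2. The read depth is unknown. Coding promoters of the sampled tissue were open: both libraries marked the promoters of 11 of 12 skeletal muscle genes, against 0 of 6 hepatocyte and 0 of 5 macrophage markers. Fibroblast markers had one in both libraries in 3 of 3 cases, endothelial markers in 4 of 6, neuronal markers in 1 of 4 and germline markers in 1 of 3. Counted in replicate 2 whether or not replicate 1 had one, promoter peaks were at 11 of 12 skeletal muscle and 3 of 3 fibroblast markers. They were also at 2 of 6 hepatocyte, 4 of 5 macrophage, 6 of 6 endothelial, 4 of 4 neuronal and 3 of 3 germline markers, so replicate 2 alone did not set muscle apart. No share over all coding promoters is given here, so these counts have no background. In bulk tissue, a region open in few cells and a region weakly open in many cannot be told apart.

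Of the members, 680 (80.3%) belonged to lincRNA genes and the other 167 (19.7%) to antisense genes. The lncRNA genes with a start over 5 kb from every coding start were 5174 lincRNA and 1416 antisense genes, so this mix was near the background. The rule sets an upper bound on the distance to the annotated start, so closeness to the start was built in. Within that bound, 405 members (47.8%, interval 44.4 to 51.2) had their midpoint within 200 bp of the start. The median distance was 229 bp, and no expected share was computed. The midpoint was upstream of the start in 483 members and on it or downstream in 364, with a median offset of 26 bp upstream. The nearest coding start lay 37382 bp away at the median, and over 50 kb away in 345 members (40.7%). The member nearest the upper bound on the lncRNA distance was at Gm3294, 999 bp from its start, and the nearest shared region outside was at Carmn, 1004 bp away. At the coding bound, the nearest member was at Gm17201, 5001 bp from the start of Slc39a5, and the nearest region outside was at Gm34921, 4920 bp from the start of Dusp6.

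Reached from the genes, 663 of 6590 lncRNA genes with an isolated start, meaning a start over 5 kb from every coding start, had a member (10.1%, interval 9.34 to 10.8). Taken alone, replicate 1 had a peak at 10.9% of these genes (720) and replicate 2 at 24.9% (1644). Of the single peaks at isolated lncRNA starts, 868 of 1022 in replicate 1 met one of replicate 2 (84.9%, interval 82.6 to 87.1), while 76.8% of all replicate 1 peaks did. Of 2892 such peaks in replicate 2, 875 met one of replicate 1 (30.3%, interval 28.6 to 32.0), while 20.2% of all replicate 2 peaks did. Among peaks within 1 kb of a coding start, 86.8% in replicate 1 and 50.6% in replicate 2 met one of the other library. Over 5 kb from every start, these shares were 71.0% and 13.2%. With the authors' shorter peak lists the number of members was 512, in 6.43% of the genes.

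Members were weaker than coding promoters and stronger than distal regions. The authors' signal has no stated scale and was read as a percentile within each library's own list. The median member was at percentile 58.4 in replicate 1 and 89.7 in replicate 2. All shared peaks had medians of 61.3 and 89.5, the 19909 shared peaks within 1 kb of a coding start 77.9 and 94.2, and the 18809 over 5 kb from every start 48.7 and 86.3, in replicates 1 and 2. The members thus lay between coding and distal regions in both libraries. Over the 847 members the signals of the libraries had a Spearman rho of 0.88, and on the log2 scale a Pearson r of 0.90, both across regions of the same libraries and given as a description.

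**Figure D1:**
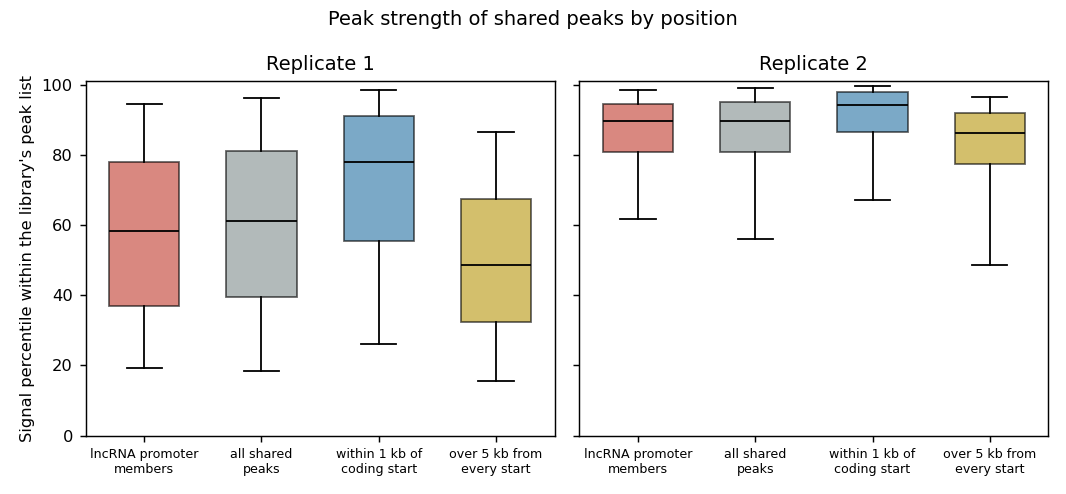
Signal percentile within each library's own peak list (y axis) for the 847 members and 3 sets of shared peaks (x axis), with a panel per library; boxes span the quartiles, the line is the median and whiskers run from the 5th to the 95th percentile of regions. The members' medians of 58.4 and 89.7 lie below those of coding promoters, 77.9 and 94.2, and above those of regions far from every start, 48.7 and 86.3.

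The strongest member in both libraries together was the promoter of 1700113A16Rik, an antisense gene on chromosome 3. Its region chr3:88178001-88178220 had a signal of 16.2 in replicate 1 (percentile 99.91) and 57.3 in replicate 2 (percentile 99.99), and lay 9864 bp from the nearest GENCODE start of Mef2d, a transcription factor of muscle differentiation. A second member of this gene, 39 bp from its start, ranked 5 and carries the CACGTG box shown above, and the weakest of its 3 members ranked 460. The nearest RefSeq mRNA start of Mef2d lay 34766 bp from the strongest region.

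The second was 1700096K18Rik on chromosome 5, with signals of 13.6 and 39.4 in replicates 1 and 2. The third was 6720427I07Rik on chromosome 13, with 16.6 and 34.2, whose second member was twelfth. This gene holds 3 let-7 miRNA genes. The fourth, Gm42418, had 19.7 and 23.6 and was the 1 member that overlapped an annotated rRNA gene. rRNA genes are repeated in the genome and reads from copies could not be told apart, so its value is uncertain.

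Gm11527, D730045B01Rik, 1700020I14Rik, AC123853.1 and Malat1 followed at ranks 6 to 10. 1700020I14Rik, known as Cyrano, is a conserved lncRNA that directs the destruction of miR-7, and its region had signals of 7.22 and 23.1 with its midpoint 26 bp upstream of the start. Malat1, an abundant RNA of nuclear speckles, had 2 members. The stronger, with signals of 7.09 and 20.1, lay 994 bp upstream of the nearest start, and the other, with 3.01 and 6.67, 19 bp upstream. Gm15287, Gm5165, 5430416N02Rik and 2410080I02Rik completed the 15 strongest. The last lies 6270 bp from the start of Klf9, a transcription factor gene induced by glucocorticoids, and had 3 members. Gm5165 is a lincRNA in GENCODE but has a RefSeq mRNA start 122 bp away. In all, 39 members (4.60%) had a RefSeq mRNA start within 1 kb.

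**Figure D2:**
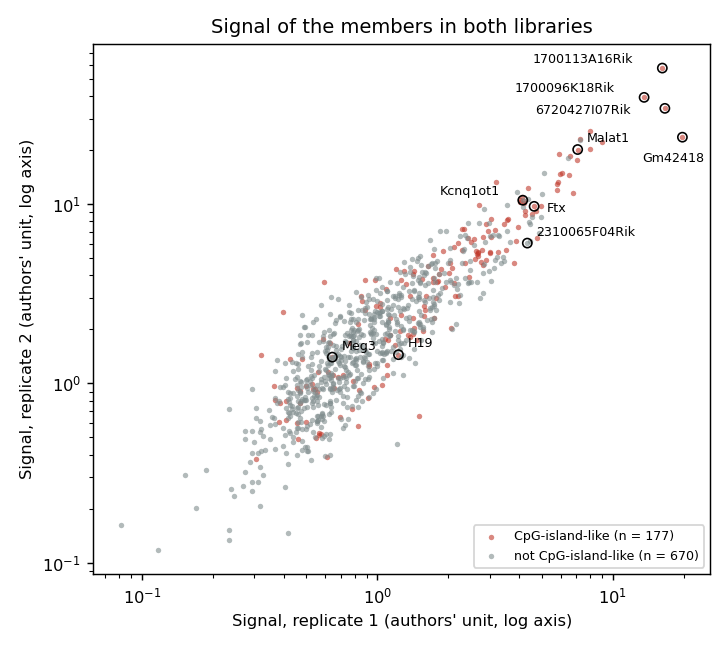
The authors' signal of each member in replicate 1 (x axis) and replicate 2 (y axis), both log axes, with each point 1 of 847 members coloured by CpG content and black rings on the best-ranked member of 10 named genes. The points follow 1 diagonal band (rho 0.88), and the upper right corner is held by 1700113A16Rik, 1700096K18Rik, 6720427I07Rik and Gm42418.

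Most members lacked the CpG content typical of coding promoters. A 300 bp window was called CpG-island-like when GC was at least 50% and CpG dinucleotides reached at least 0.6 of the number expected from base composition. This held for 177 members (20.9%, interval 18.2 to 23.8), against 31.7% of all shared peaks, 68.3% at coding starts and 3.73% far from every start. The median observed over expected ratio was 0.339 in members, 0.758 at coding starts and 0.234 in distal regions. The CpG-island-like members were the stronger ones: their median percentiles were 79.9 in replicate 1 and 95.3 in replicate 2, against 53.5 and 88.3 for the other 670. Above percentile 90 of replicate 1 were 27.7% of them and 5.22% of the others, and 13 of the 15 strongest members were CpG-island-like. In the gene view, 133 of 320 genes with a CpG-island-like isolated start had a member (41.6%), against 530 of 6270 without (8.45%). With every peak of replicate 2 in place of shared peaks, the CpG-island-like share was 9.51%.

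The midpoint was inside a protein-coding gene body in 128 members (15.1%, interval 12.8 to 17.7), against 57.9% of all shared peaks and 47.9% of shared peaks far from every start, which keep the same distance from coding starts. The rule bears on this share, since lincRNA genes, with 680 of the members, are annotated as lying between coding genes. Footprints of both libraries were found in most members: 708 members (83.6%, interval 80.9 to 86.0) overlapped one in each library. The share was 79.6% of all shared peaks, 80.5% of those at coding starts and 79.5% of those far from every start. The median member overlapped 2 footprints in replicate 1 and 3 in replicate 2, and the highest numbers were 13 and 14.

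**Figure D3:**
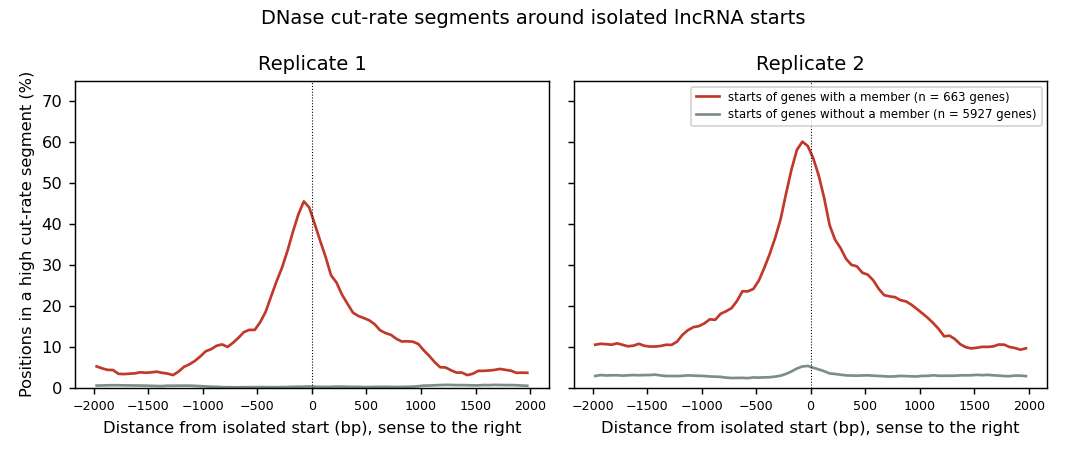
Share of positions (y axis) inside an authors' segment of high cut rate at 5% FDR, by distance from an isolated lncRNA start with transcription to the right (x axis), for 663 genes with a member and 5927 without, with a panel per library. Starts with a member peak at 45.6% in replicate 1 and 60.2% in replicate 2, 75 bp upstream, while starts without one stand at 0.299% and 5.31% at 25 bp upstream; the presence of a peak chose the genes, so the curves describe shape and place.

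For most motifs the members' share lay between those of the coding and distal sets, with MEF3 and GRE above both. Consensus motifs were searched on both strands of the 150 bp windows. The E-box CAGCTG, a core read by the MyoD family of muscle regulators, was found in 21.1% of members, against 11.7% of shared peaks at coding starts, 25.5% of distal ones and 19.2% of all. The SP/KLF site GGGCGGG was found in 11.2% of members, against 30.3% at coding starts, 4.03% in distal regions and 15.4% of all. The AP-1 site TGANTCA was in 8.26% of members, 2.59% of coding and 9.78% of distal regions. YY1 and ETS sites, AANATGGCG and CCGGAAGT, which are frequent in housekeeping promoters, were in 0.35% and 1.18% of members and in 2.21% and 4.14% of coding promoters. CTCF consensus matches were in 2.72% of members, 0.73% of coding and 3.23% of distal regions. SP/KLF was in 31.1% and CAGCTG in 7.34% of CpG-island-like members, against 5.97% and 24.8% of the others. This split is not independent of how the classes were defined. Their 300 bp window contains the motif window, and GGGCGGG holds a CpG while CAGCTG holds none. The compared sets also differ in CpG content, which bears on SP/KLF, YY1 and ETS, whose motifs each hold a CpG. MEF2, TEAD and MEF3 sites, also read by factors of muscle, were in 1.53%, 2.24% and 2.83% of members, against 1.495%, 2.54% and 2.06% of all shared peaks. MEF2 was in 0.728% of coding and 2.17% of distal regions, and TEAD in 1.34% of coding and 3.79% of distal regions. MEF3 was in 1.28% of coding and 2.57% of distal regions, and GRE in 0.708% of members, 0.116% of coding and 0.675% of distal regions; the members' intervals for both hold the distal values. E-box CACGTG was in 6.02% of members and 4.98% of all.

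**Figure D4:**
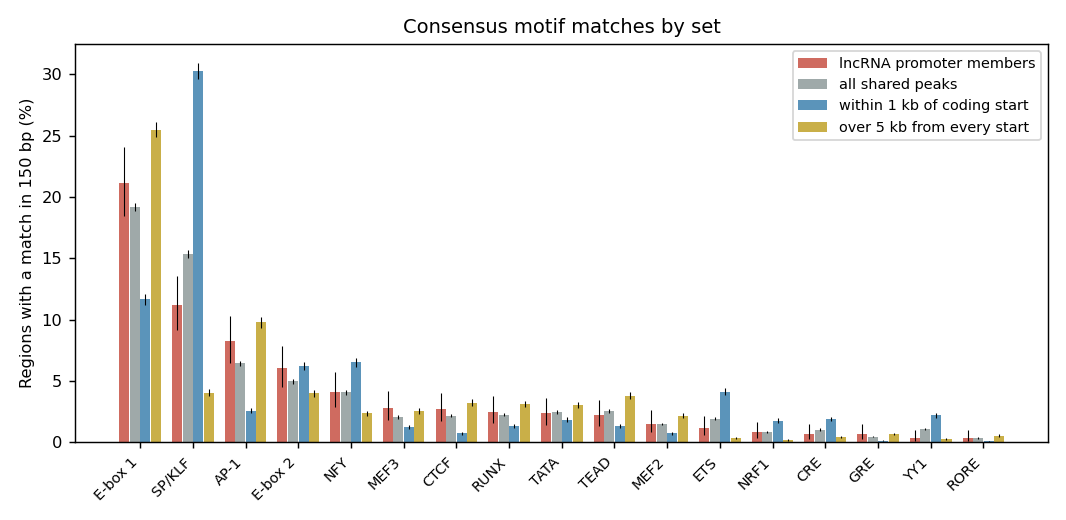
Share of regions with a consensus match in 150 bp (y axis, with 95% exact intervals) for 17 motifs (x axis, ordered by their share in members), with bars for the members and 3 sets of shared peaks; E-box 1 is CAGCTG and E-box 2 is CACGTG. For E-box 1 the members stand at 21.1%, between coding promoters at 11.7% and distal regions at 25.5%, and for SP/KLF at 11.2%, between 30.3% and 4.03%.

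Sites differed in how often they overlapped a footprint of both libraries. No chance level of overlap was computed, and the motifs differ in length, from 6 letters for CAGCTG to 12 for CTCF. All 7 NRF1 sites in members lay in a footprint of both libraries, and so did 16 of 23 CTCF sites, 24 of 37 NFY sites, which read CCAATCA, and 5 of 6 CRE sites, which read TGACGTCA. The share was 53 of 131 for SP/KLF, 33 of 215 for CAGCTG (15.3%), 11 of 59 for CACGTG and 5 of 75 for AP-1 (6.67%). Over all shared peaks the same order held for NRF1 (80.2%), CRE (77.2%), CTCF (59.9%), NFY (53.2%), SP/KLF (41.4%), CAGCTG (11.7%) and AP-1 (9.39%). Not all other motifs kept their place. ETS had 1 of 11 sites in members and 32.9% over all shared peaks, TATA 5 of 23 and 8.76%, and GRE 2 of 6 and 13.7%. Most CAGCTG sites of members were thus not covered by a footprint of both libraries, as in shared peaks generally.

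The classes of lncRNA gene differed in how often they were open. Many mouse lncRNAs are still named after the tissue library of the RIKEN cDNA clone that defined them. The clones of the tongue library, an organ built of skeletal muscle and epithelium, had the highest share of the 5 classes. Only tongue and testis clones were split out, and the other RIKEN clones were pooled. The tongue-clone genes were examined after seeing the data, and the part of muscle in their share was not tested. Of 25 isolated genes named after tongue clones, 16 had a member (64.0%, interval 42.5 to 82.0), with a peak in 16 in replicate 1 and in 17 in replicate 2. The background over all isolated lncRNA genes was 10.1%. Genes named after testis clones had a member in 52 of 654 cases (7.95%, interval 6.00 to 10.3), other RIKEN clones in 99 of 496 (19.96%), Gm gene models in 396 of 4703 (8.42%) and other names in 100 of 712 (14.04%). Of the tongue-clone genes, 24 had no CpG-island-like start, and all 16 with a member were among them. With 1 isolated start, 9 of 15 tongue-clone genes had a member, against 26 of 437 testis-clone genes (5.95%). At equal numbers of strongest peaks from each library the tongue share was again 64.0%, and with the shorter peak lists it was 32.0% (8 of 25), against 5.50% of testis-clone genes. lincRNA and antisense genes had near shares, 10.3% and 9.18%, as did genes with a spliced transcript and those with none, 10.06% and 10.04%. Genes with 1, 2 and at least 3 isolated starts had a member in 8.49%, 12.4% and 23.1% of cases.

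**Figure D5:**
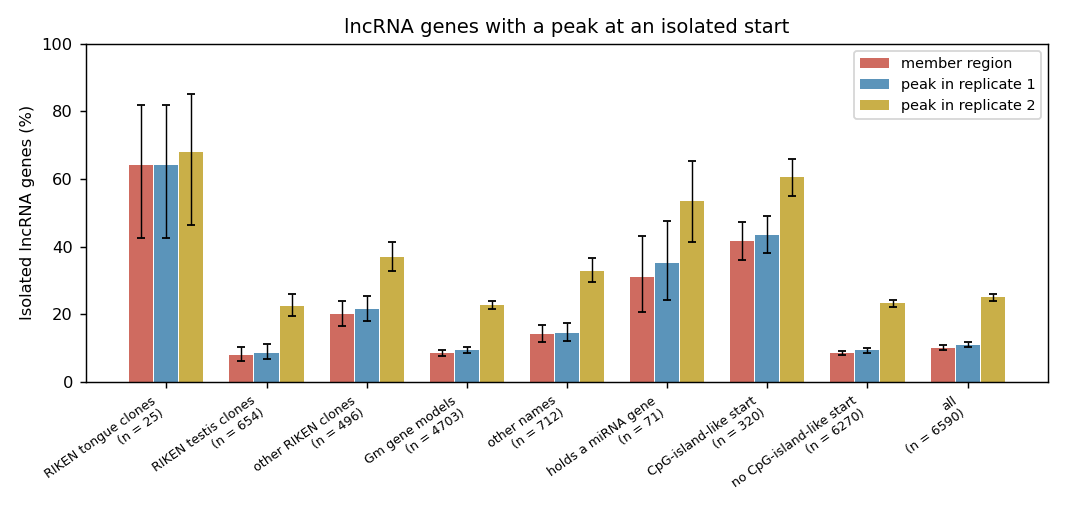
Share of lncRNA genes with an isolated start (y axis) that had a member, a peak in replicate 1 or a peak in replicate 2, by kind of gene (x axis, with the number of genes), with 95% exact intervals. Tongue-clone genes stand at 64.0% for members, against 7.95% of testis-clone genes and 10.1% of all genes.

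Among the tongue-clone genes, 2310065F04Rik, known as linc-MYH, lies between the embryonic and adult fast myosin heavy chain genes and is known from fast muscle fibres. It had 4 members, with signals of 4.33, 3.14, 1.30 and 0.562 in replicate 1 and 6.06, 4.43, 1.69 and 0.628 in replicate 2, in the same order in both. The strongest was at percentiles 95.05 and 97.4. The CAGCTG box printed above belongs to the second, chr11:67119661-67119880, whose midpoint is 309 bp downstream of the start. 2310040G24Rik and 2310001H17Rik had 3 members each. The best of 2310040G24Rik had signals of 2.30 and 5.45, and the best of 2310001H17Rik 1.51 and 3.61. The lowest of the 16 genes by mean rank over both libraries, 2310039L15Rik, had 0.427 and 0.885, at percentiles 24.1 and 79.2. The signal of 2310016D03Rik was lower in replicate 2, at 0.829.

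Other members neighboured muscle regulators. The nearest coding start belonged to 1 of 88 listed skeletal muscle genes in 14 members (1.65%), against 1.61% of all shared peaks and 1.87% of distal ones, so this share was near the background. They were the 3 regions of 1700113A16Rik by Mef2d, the 4 of 2310065F04Rik by Myh3, 2 of Gm33926 by Mef2a, and 1 each by Myod1, Maf, Mef2c, Vgll2 and Myot. The stronger region of Gm33926, 71893 bp from Mef2a, had signals of 3.65 and 6.11 in replicates 1 and 2. 1700025L06Rik, 26163 bp from Myod1, the master regulator of muscle fate, had 2.83 and 4.62. 4930488N15Rik, 122470 bp from Maf, which encodes a factor of the fast fibre programme, had 3.03 and 3.74.

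Among lncRNAs of the nucleus and of broad expression, all 6 listed genes with an isolated start, Malat1, Neat1, Lncpint, Trp53cor1, 2900097C17Rik and Pvt1, had a member, against 10.1% of all isolated lncRNA genes and 23.1% of those with at least 3 isolated starts. Apart from 2900097C17Rik with 2, these genes have 4 to 14 isolated starts. Neat1, the scaffold of paraspeckles, shared its stronger region with the divergent gene Frmd8os, at signals of 4.93 and 9.77, and Frmd8os itself had 4 members. Lncpint, a p53-induced lncRNA, had 5, more than any other gene, with signals from 4.05 to 1.14 in replicate 1 and from 10.3 to 1.30 in replicate 2. Gm37494, E130102H24Rik, Gm16897 and 4933425B07Rik had 4 members each. Of all 668 genes in reach of a member, 506 had 1, 129 had 2, 26 had 3 and 6 had 4. 2900097C17Rik, known as Norad, which binds Pumilio proteins, had 1.26 and 3.75. Pvt1, the neighbour of Myc, had 1.43 and 2.05 at the start that carries the CRE shown above. The 3 listed snoRNA hosts with an isolated start, Snhg6, Snhg12 and Snhg20, each had a member, at ranks 80, 92 and 189. They have 5, 8 and 7 isolated starts, the class of genes with a share of 23.1%.

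Imprinted lncRNAs had a member in 5 of 6 genes with an isolated start, against 10.1% of all isolated lncRNA genes and 23.1% of those with at least 3 isolated starts. H19, Meg3, Mirg and Airn have 7, 11, 11 and 6 such starts. Kcnq1ot1, the silencer of the Cdkn1c domain, was the strongest, with 4.14 (percentile 94.7) in replicate 1 and 10.5 (percentile 98.8) in replicate 2. B830012L14Rik in the Dlk1-Dio3 domain had 2.19 and 3.59, and Airn, which silences Igf2r, had 1.89 and 3.42. H19 had 1.23 and 1.45 and Meg3 0.644 and 1.40, at percentiles 71.8 for H19 and 43.0 for Meg3 in replicate 1. Meg3 lay below the median member in both libraries, and Mirg had no peak in either library.

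At the X-inactivation centre, 2 of 4 lncRNA genes had a member, against 10.1% of all isolated lncRNA genes. Both, Ftx and Jpx, have 10 isolated starts, the class with a share of 23.1%. Ftx, an activator of Xist, had 2 regions, with signals of 4.63 and 9.71 at the NRF1-bearing start and of 2.29 and 7.30 at the other. Jpx, another activator, had 1.58 and 2.70. Xist, the RNA that coats the inactive X chromosome, had a peak in replicate 2 at percentile 73.4 and none in replicate 1, and its antisense gene Tsix had none in either library. Chromosome X held 14 members in all (1.65%, interval 0.907 to 2.76), against 2.43% of all shared peaks.

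lncRNA genes that hold an annotated miRNA gene had members at a higher share than all isolated lncRNA genes. The 23.1% of genes with at least 3 isolated starts lies within the interval of that share, given next. Some of these genes have many starts, such as Ftx with 10 and Meg3 with 11, and the number of starts was not matched. Of 71 isolated genes that hold an annotated miRNA gene, 22 had a member (31.0%, interval 20.5 to 43.1), 25 had a peak in replicate 1 and 38 in replicate 2, against the 10.1%, 10.9% and 24.9% of all isolated lncRNA genes. The strongest by signal were 6720427I07Rik with let-7a, let-7d and let-7f, Gm20732 with Mir30d, Ftx with Mir374b and Mir421, and E130102H24Rik with Mir101a. 9330111N05Rik, Smkr-ps, Mir17hg and Snhg20 came next. The mature sequences of the main miRNAs, from RefSeq on GRCm38.p6, are shown with the seed, bases 2 to 8, in capitals, because the seed decides which transcripts a miRNA recognises.
let-7a-5p, chr13:48538239-48538260, minus strand: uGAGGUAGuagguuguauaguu
let-7d-5p, chr13:48536078-48536099, minus strand: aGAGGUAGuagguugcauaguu
let-7f-5p, chr13:48537889-48537910, minus strand: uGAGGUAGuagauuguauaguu
miR-101a-3p, chr4:101346957-101346977, minus strand: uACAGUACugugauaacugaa
miR-17-5p, chr14:115043684-115043706, plus strand: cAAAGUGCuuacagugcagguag
miR-20a-5p, chr14:115044183-115044205, plus strand: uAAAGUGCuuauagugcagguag
miR-199a-5p, chr1:162217844-162217866, plus strand: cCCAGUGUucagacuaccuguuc
miR-206-3p, chr1:20679055-20679076, plus strand: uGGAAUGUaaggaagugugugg
miR-133b-3p, chr1:20682834-20682855, plus strand: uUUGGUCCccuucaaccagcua

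The 3 let-7 miRNAs of 6720427I07Rik carry 1 seed, GAGGUAG, and miR-17 and miR-20a of Mir17hg carry another, AAAGUGC. The region of 6720427I07Rik had signals of 16.6 and 34.2 at percentiles 99.92 and 99.91, that of Gm20732 5.80 and 11.98, and that of E130102H24Rik 4.24 and 9.11. Mir17hg, the precursor of a cluster linked to proliferation, had 1.72 and 3.68. Dnm3os, which holds the miR-199a and miR-214 genes and is known for skeletal development, had 1.28 and 3.44. The last pair of sequences belongs to Gm28653, the precursor of the muscle miRNAs miR-206 and miR-133b, which had no member. Replicate 2 had a peak there at percentile 53.7 and replicate 1 had none. Mir133a-1hg, which holds Mir133a-1 and Mir1a-2, likewise had a peak in replicate 2, at percentile 62.1, and none in replicate 1. The other 5 of 6 muscle-linked lncRNAs with an isolated start had a member, against 10.1% of all isolated lncRNA genes. These were Malat1, Neat1, H19, Meg3 and Dnm3os, which also stand in the lists above. They have 4, 4, 7, 11 and 5 isolated starts, the class of genes with a share of 23.1%.

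The lists of lncRNA genes known from other tissues are short and are read against the 10.1% of all isolated lncRNA genes with a member. None of 8 nervous system lncRNAs with an isolated start had a member. Miat had a peak in replicate 2 at percentile 39.5, Rmst had one in replicate 1 at percentile 13.9, and the other 6 had none in either library. At this list size, 0 of 8 is near the background. Neither Hotair nor Halr1 of the Hox clusters had a member, although Halr1 had a peak in replicate 2 at percentile 82.7. Bvht, a lncRNA of heart development, had a peak in replicate 2 at percentile 93.0 and none in replicate 1. Of 4 immune lncRNAs, Mir155hg had 2 members, the stronger with signals of 0.784 and 1.03, below the median of members in both libraries. Ptgs2os2 had a peak in replicate 2, and Mirt1 and F630028O10Rik had none in either library. Carmn, a lncRNA of smooth muscle, had 2 members. Its stronger region had signals of 3.54 and 9.90, at percentiles 93.0 and 98.7. The part of smooth muscle or other cells in these values was not tested.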

How the data were processed

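DNase-seq was done on 2 gastrocnemius libraries of 1 group. Per the labels, positions are on mm10, and all deposited positions lay within its chromosomes. The deposited README says that the caller was run on each library separately. For the aligner and the caller, names and versions were not given in the sources used here. The deposited peak lists give each peak a signal, an authors' value of unstated normalization, which was ranked within a list. The deposited footprints carry a p-value of 0.01 in every row, so these were used by position, as were the authors' segments of high cut rate, all at a false discovery rate of 0.05 or less.

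Peaks of each library's longer list that overlapped by 1 bp or more were merged, book-ended peaks included. The midpoint was the mean of the midpoints of each library's strongest peak in the region. Starts came from GENCODE M21. Sequence came from RefSeq GRCm38.p6, the same build, read with pysam 0.24.0 on Python 3.11.15. CpG content was read in 300 bp and motifs in 150 bp around the midpoint. Motif windows are given on the reference, although the mice are F1 hybrids. No test between groups was possible, so shares have 95% exact Clopper-Pearson intervals that cover counting error only. Neighbouring regions of a gene are not independent. The scripts were tested on simulated peaks, starts and motifs. Members, gene lists and comparison sets were chosen with earlier results of these data known.

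Named genes were the 15 best-ranked members, up to 3 genes with and 2 without a member from each list, the 5 genes with most members, the 8 best members at miRNA genes and at muscle genes, and the regions nearest each distance bound. Genes named beyond this rule (Xist neighbours, Carmn, Gm28653, Dnm3os and weaker members of lists) were chosen after their values were seen.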

Additional observations from a re-analysis of the deposited data

How the results depend on the processing

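No paired analysis was possible because both libraries belong to 1 group. With promoter windows of 500 bp and 2 kb, the share of isolated lncRNA genes with a member was 8.07% and 13.2%, and the CpG-island-like share 24.6% and 17.2%. An isolation distance of 2 kb put 19.6% of members inside a coding gene body. A reciprocal overlap of 50% gave 8.53% of genes. The shorter lists gave 512 members, 6.43% of genes, 27.3% CpG-island-like and 89.1% with footprints of both libraries. Equal numbers of strongest peaks gave 8.94% of genes and 87.8% with footprints. The stronger part of each list gave 508 members, 6.27% of genes, 27.4% CpG-island-like and 90.4% with footprints. CpG windows of 500 and 150 bp gave 17.7% and 23.97%, and whole footprints within the central 150 bp 78.2%. Leaving out 1 library in turn gave 1022 to 2892 regions, 10.9% to 24.9% of genes, 19.6% to 9.51% CpG-island-like, 82.4% to 65.4% with a footprint of the remaining library, and 15.9% to 20.9% inside coding gene bodies; the second value is that of replicate 2 alone each time. In the same pair of settings SP/KLF was in 9.002% and 6.26% of regions, NFY in 3.72% and 2.04%, CTCF in 2.15% and 1.66%, CAGCTG in 21.3% and 16.7%, and CACGTG in 6.46% and 3.98%. A motif window of 300 bp, which holds more positions, gave CAGCTG in 32.0%, SP/KLF in 16.8%, AP-1 in 14.05%, CACGTG in 8.74%, TATA in 6.85%, NFY in 6.26%, TEAD in 5.55%, MEF3 in 5.31%, RUNX in 4.49%, MEF2 in 2.95%, ETS in 2.24% and RORE in 1.30% of members. Some of these differences follow from their construction. They are the lower counts from shorter or stronger lists, the gene shares of the narrower and wider promoter windows, and the higher motif shares of the longer window. For the others the cause was not tested. Requiring over 5 kb from every RefSeq mRNA start, an alternative chosen after seeing the data, left 799 members. The shares stayed within their main intervals, at 9.76% of genes, 20.3% CpG-island-like, 83.9% with footprints and 14.5% inside coding gene bodies. The count and the signal percentile have no interval, and the mean over both libraries of the median percentile was 74.03, against 74.05. Of the tongue-clone genes, also examined after seeing the data, between 32.0% and 68.0% had a member over 10 settings, and of the testis-clone genes between 5.50% and 22.5%. Read depth is unknown, and its part in the peaks found in replicate 2 alone was not tested.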

Other observations

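Members next to zinc finger genes were seen after the values had been examined. The nearest coding start belonged to a gene of the Zfp series in 40 members (4.72%, interval 3.39 to 6.38), against 2.02% of all shared peaks. Of 165 isolated lncRNA genes whose nearest coding gene is of this series, 28 had a member (16.97%, interval 11.6 to 23.6), against 635 of 6425 others (9.88%). Gm37494, with 4 members beside Zfp619, has a RefSeq mRNA start of Gm33989 within 1 kb of its regions.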
